A study of Mus musculus with 2 samples.

Results

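Collagen chains and 8 secreted matrix genes that accompany them (Dcn, Lum, Mgp, Postn, Fn1, Sparc, Fbln1 and Fbln2) were followed through full-length transcript reads of the mouse adrenal gland. Members were taken by gene symbol from the deposited transcript tables, and 52 of the 55536 annotated genes carry such a symbol, 44 of them collagen chain genes. At least 1 read was counted for 45 of the 52, and 7 had none in either library. The glands came from female B6CASTF1/J mice, the first-generation hybrids of C57BL/6J and CAST/EiJ, at 2 months of age and with no treatment named in the labels. The study holds 1 group, adrenal gland, with 2 libraries labelled biological replicates 1 and 2, and long-read RNA-seq of total RNA was used, in which a read follows 1 molecule through its exons. The labels give the biosamples different animal numbers but the same donor entry, and whether they are separate animals is not settled. Whole glands were used, so fewer cells of a type and less RNA per cell cannot be told apart, and no value says which cell made a transcript.

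Collagens are trimers whose chains repeat glycine at regular steps, which lets the chains wind into a triple helix. Fibrillar chains form the fibres of connective tissue, type IV chains form the sheet of basement membranes, type VI chains form beaded filaments near cells, and multiplexins, transmembrane chains and fibril-associated chains sit at the borders between these. In the adrenal gland a collagen-rich capsule surrounds the cortex, and basement membrane lines the sinusoids between steroid-making cells. The exons of the triple helix are short and numerous, and many are built from 9-base units, each of which encodes a glycine and its 2 neighbours. In the annotation, 50 of the 65 internal exons of Col5a3 were multiples of 9 bases and 31 were exactly 54 bases, as is exon 19 of Col3a1 (chr1:45331973-45332026, mm10, plus strand), which holds 6 glycine codons among 18. That exon is shown 5′ to 3′ as the pattern behind the transcripts below, with glycine codons in capitals.
Col3a1 exon 19: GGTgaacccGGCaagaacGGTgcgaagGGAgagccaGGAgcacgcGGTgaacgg

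The depth was 1277310 reads for replicate 1 against 520388 for replicate 2, and annotated nuclear genes took 94.7% and 96.6% of them. A level is given below in CPM, that is, reads scaled to 1e+06 nuclear reads. The limit that a count of 0 allows (3 reads, counting error only) was 2.48 CPM for replicate 1 and 5.97 CPM for replicate 2. Detection required 3 or more reads from both libraries. Markers of the cells that could carry the matrix were present at modest levels: 12 of 17 capsule and fibroblast markers were detected, summing to 4046 CPM (replicate 1) and 2580 CPM (replicate 2). Most of that sum was Gsn, at 3609 and 2167 CPM, and the other 16 markers, 4 of them collagen and matrix genes, summed to 437 and 414 CPM. The fibroblast receptor Pdgfra had 11.6 and 9.95 CPM. Steroidogenic markers summed to 63604 and 83039 CPM, chromaffin markers to 11589 and 6686 CPM, and endothelial markers to 637 and 853 CPM. Adipocyte markers, 7 of 8 detected, summed to 4316 and 4279 CPM, macrophage markers to 510 and 471 CPM, pericyte and smooth muscle markers to 172 and 193 CPM, and mesothelial markers to 49.6 and 47.7 CPM. Schwann and sustentacular markers summed to 35.6 and 13.9 CPM, and none of 5 cartilage markers was detected.

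The 52 genes gave 4031 reads in replicate 1 and 2010 reads in replicate 2, or 3333 and 3999 CPM (mean 3666 ± 471 CPM, SD, n = 2). Of the 45 genes with a read, 20 were detected and 25 fell below the minimum. The most read of these, Col14a1, had 16 reads in replicate 1 and 2 reads in replicate 2. The 6 glycoproteins were all detected and summed to 1614 and 2479 CPM. Of 11 fibrillar chains 5 were detected, with a sum of 789 and 678 CPM. Basement membrane chains summed to 391 and 342 CPM with 2 of 6 detected, beaded filament chains to 235 and 239 CPM with 2 of 6 detected, and the 2 proteoglycans to 163 and 177 CPM. Multiplexins, fibril-associated, transmembrane, short network and the remaining chains were each below 63 CPM in sum in both libraries.

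**Figure D1:**
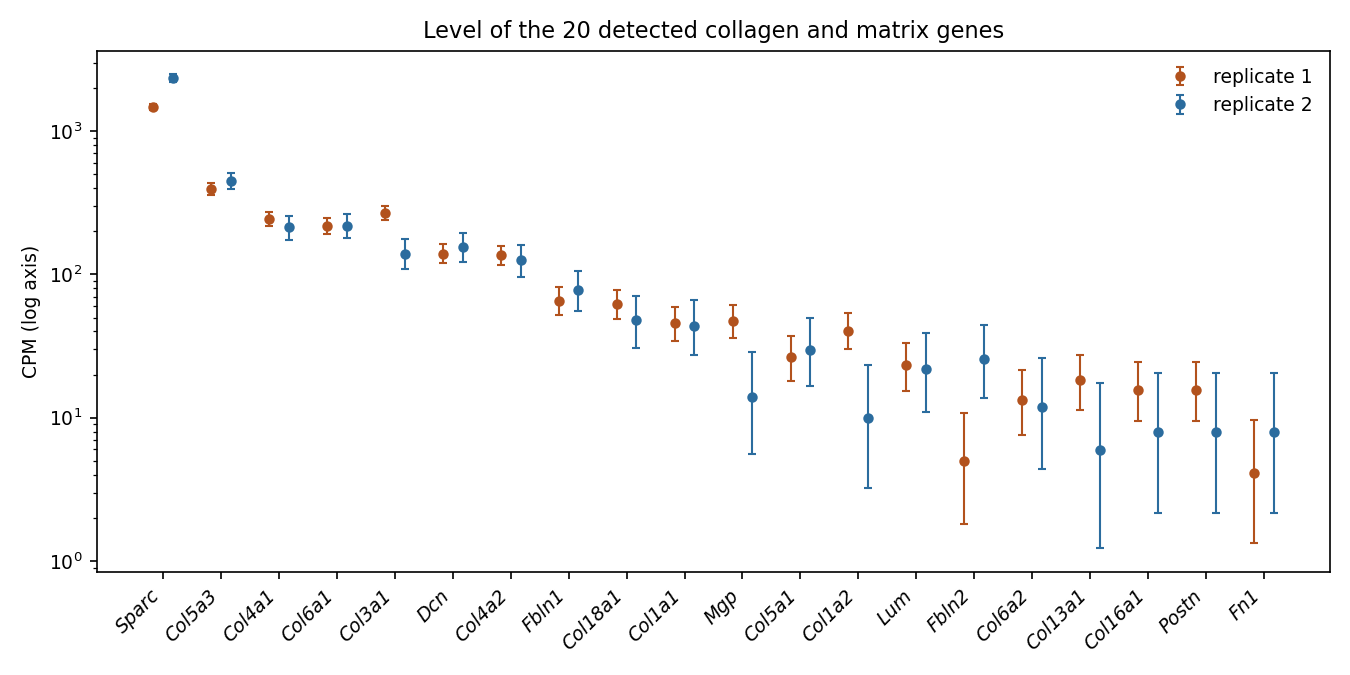
Level in CPM (log axis) of each of the 20 detected genes in replicate 1 (left point) and replicate 2 (right point), with exact 95% Poisson intervals of the read counts. Sparc is highest in both libraries (1477 and 2346 CPM), Col5a3 is next, and the intervals of the libraries stand apart for Sparc, Col3a1, Mgp, Col1a2 and Fbln2.

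Sparc (chr11:55394500-55423183), a collagen-binding secreted glycoprotein, was the most abundant, with 1786 reads in replicate 1 and 1179 reads in replicate 2, or 1477 and 2346 CPM. It ranked 36th by mean CPM among 16910 genes with a read. Fibulin 1, encoded by Fbln1 (chr15:85205949-85286535) and a partner of elastic fibres and basement membranes, had 79 and 39 reads, or 65.3 and 77.6 CPM. Fibronectin (Fn1), an adhesive glycoprotein of early matrix, had 5 and 4 reads, and Postn, periostin of collagen-rich connective tissue, had 19 and 4 reads. Both were near the detection minimum.

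Among fibrillar chains Col5a3 (chr9:20770050-20815067), a minor chain of type V fibres, stood highest in both libraries, with 476 and 226 reads or 394 and 450 CPM. Col3a1 (chr1:45311538-45349706), the only chain of type III fibres, had 326 and 70 reads, or 270 and 139 CPM. Col1a1 (chr11:94936224-94953042), the main chain of type I collagen, had 55 and 22 reads, or 45.5 and 43.8 CPM. Reads of Col5a3 therefore outnumbered those of Col1a1 in both libraries. They outnumbered those of Col3a1 by 1.46-fold in replicate 1 (exact 95% interval 1.27 to 1.69) and 3.23-fold in replicate 2 (2.46 to 4.28). Of the 476 reads of Col5a3 in replicate 1, 40 were in a model of 1 base at the annotated 3′ end. They raise the level of Col5a3 and its ratios in that library. Col5a1, the common chain of type V, had 32 and 15 reads, so that Col5a3 had 14.9 and 15.1 reads for each read of Col5a1. Per kilobase of the longest annotated transcript the mean levels were 68.9 CPM for Col5a3, 36.7 CPM for Col3a1, 7.52 CPM for Col1a1 and 3.35 CPM for Col5a1.

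The type IV chains Col4a1 (chr8:11198423-11312826) and Col4a2 (chr8:11312805-11449287), which form the widespread trimer of basement membranes, had 295 and 107 reads and 165 and 63 reads. Their ratio, Col4a1 over Col4a2, was 1.79 in replicate 1 (exact 95% interval 1.47 to 2.18) and 1.70 in replicate 2 (1.23 to 2.36), so the libraries did not differ beyond counting error. Of the other type IV chains, Col4a4 reached 8 reads in replicate 1 and none in replicate 2. Col6a1 (chr10:76708792-76726168), a beaded filament chain, had 264 and 110 reads, or 218 and 219 CPM, while its partner Col6a2 had 16 and 6 reads and Col6a3 had 1 and 2 reads. The proteoglycans Dcn (chr10:97479609-97518143) and Lum, both small binders of fibrils, had 169 and 78 reads and 28 and 11 reads. Col18a1 (chr10:77052178-77166548), the basement membrane multiplexin that yields endostatin, had 75 and 24 reads.

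The order of levels depended on whether transcript length was considered. On CPM per kilobase of the longest annotated transcript, averaged over the libraries, Sparc led with 831, followed by Col5a3 with 68.9 and Col6a1 with 53.3. Mgp, the short mRNA of matrix Gla protein, an inhibitor of calcification, moved from 11th place by CPM to 4th place with 42.7. Col3a1 (36.7), Col4a1 (34.5) and Dcn (31.4) followed on that scale, and Col1a1 stood at 7.52. The longest annotated transcript is not always the form that was read. For Dcn it has 4692 bases, while Dcn-201 and Dcn-202, which held nearly all its spliced reads, have 1758 bases each. The value of Dcn is therefore too low for the forms read, and the order on this scale depends on the length chosen.

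Col4a1 and Col4a2 lie head to head, and the annotated starts of Col4a1-201 and Col4a2-201 were 21 bases apart, within the transcribed part of each other's first exon. RefSeq promoter windows (GRCm38.p6, 250 bases before to 50 after each start) were available for 39 of the 52 genes, and those of this pair shared 78 bases. The windows are printed 5′ to 3′ on their own strands because they overlap. Capitals mark matches on either strand to the CCAAT box (CCAAT) or the GC box (GGGCGG).
Col4a1 promoter, chr8:11312777-11313076, minus strand: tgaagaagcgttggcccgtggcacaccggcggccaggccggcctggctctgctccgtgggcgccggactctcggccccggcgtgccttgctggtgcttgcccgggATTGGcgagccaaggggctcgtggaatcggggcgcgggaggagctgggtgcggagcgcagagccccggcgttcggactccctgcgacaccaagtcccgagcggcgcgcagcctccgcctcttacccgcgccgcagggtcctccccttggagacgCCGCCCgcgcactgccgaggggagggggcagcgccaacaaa
Col4a2 promoter, chr8:11312555-11312854, plus strand: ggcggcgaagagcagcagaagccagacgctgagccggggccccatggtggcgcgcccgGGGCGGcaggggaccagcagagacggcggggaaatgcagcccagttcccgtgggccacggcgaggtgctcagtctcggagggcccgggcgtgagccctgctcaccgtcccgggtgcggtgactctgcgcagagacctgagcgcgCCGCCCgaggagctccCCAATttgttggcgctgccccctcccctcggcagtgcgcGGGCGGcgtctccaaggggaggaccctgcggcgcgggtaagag
Both windows held a CCAAT box and a GC box, and neither held the TATA box searched as TATAAA. The only GC box of the Col4a1 window lies in the 78 shared bases, downstream of both starts. It is the same site as 1 of the 3 GC boxes of the Col4a2 window. Of 32851 promoter windows of the same length, 37.4% held CCAAT, 35.7% held GGGCGG and 13.6% held TATAAA. Among the 44 windows of the collagen and matrix genes 14, 25 and 6 held these motifs.

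The libraries were compared gene by gene with a two-sided Fisher's exact test on reads, with Benjamini-Hochberg adjustment over the 10170 genes with at least 10 reads in all. Each side is 1 library, so the test compares libraries, not conditions. Its p-values and standard errors hold counting error only and no spread between animals or preparations. A call needed an adjusted p under 0.05 and at least a 2-fold ratio. The test could be run for 22 collagen and matrix genes and called 3 of them: 2 were higher and 1 was lower in replicate 1, beside 971 of all tested genes (9.55%). Over all genes, 365 calls (3.59%) were higher and 606 (5.96%) lower in replicate 1, and with TMM scaling the split was 270 and 724. The median log2 ratio, replicate 1 over replicate 2, was 0.15 for the collagen and matrix genes and 0.06 for all tested genes.

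Col1a2 (chr6:4504814-4541544), the second chain of type I collagen, had 49 reads in replicate 1 and 5 reads in replicate 2, or 40.5 and 9.95 CPM. It was higher in replicate 1 by 1.90 on the log2 scale (SE 0.65, adjusted p 0.00494). No read of Col1a2 was in an annotated transcript, so it was not among the calls with annotated transcripts alone, which were Fbln2 and Mgp. Its partner Col1a1 hardly differed (log2 ratio 0.04, adjusted p 1), so the reads of Col1a1 per read of Col1a2 were 1.12 in replicate 1 (exact 95% interval 0.750 to 1.68) and 4.40 in replicate 2 (1.63 to 14.9). Mgp (chr6:136872435-136875823) had 57 and 7 reads, or 47.1 and 13.9 CPM, and was higher in replicate 1 by 1.67 (SE 0.56, adjusted p 0.00729). Fbln2 (chr6:91212455-91272540), a fibulin of vessel walls and basement membranes, had 6 and 13 reads, or 4.96 and 25.9 CPM. Its log2 ratio was -2.32 (SE 0.69, adjusted p 0.00475), and the call was lost when replicate 1 was thinned to the total of replicate 2 (log2 ratio -1.95, adjusted p 0.111).

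Col3a1 and Sparc differed past the adjusted p but by less than 2-fold. Col3a1 was higher in replicate 1 by 0.94 (SE 0.19, adjusted p 2.64e-06), and Sparc was lower there, with a log2 ratio of -0.67 (SE 0.05, adjusted p 2.52e-31). After thinning, Col3a1 reached the 2-fold minimum with a log2 ratio of 1.02. Of the marker sums above, the chromaffin one was higher in replicate 1 (2 of 6 markers called) and the steroidogenic one lower (1 of 7 called). The markers within each list did not move together. Chgb, Pnmt and Chga were higher in replicate 1, with log2 ratios of 1.19, 1.03 and 0.77. Dbh was lower there (-0.62, adjusted p 0.0166), and Ddc and Th were at -0.33 and -0.07. Among steroidogenic markers Cyp21a1, the called one, and Cyp11b1 (-0.47) fell most. The others lay between -0.15 and 0.03. The 12 fibroblast markers other than Gsn and the collagen and matrix genes summed to 188 and 183 CPM. The part of these cells in the ratios was not tested. Col5a3, Col4a1, Col4a2, Col6a1, Dcn, Fbln1, Col18a1, Col1a1, Col5a1, Lum and Col6a2 had log2 ratios between -0.26 and 0.36 with adjusted p from 0.296 to 1. Col13a1 (22 and 3 reads), Col16a1 (19 and 4 reads) and Postn had log2 ratios of 1.42, 0.85 and 0.85 that did not pass the test at this depth. Nor did Col14a1 at 1.46 (16 and 2 reads) and Col5a2 at 0.66 (9 and 2 reads). Col8a1, a short network chain, had 10 reads in replicate 1 and 0 in replicate 2, with an adjusted p of 0.152. Its 8.27 CPM in replicate 1 was 1.39 times the limit that a count of 0 allows in replicate 2 (5.97 CPM). That ratio leaves out the counting error of the 10 reads and is no lower bound.

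**Figure D2:**
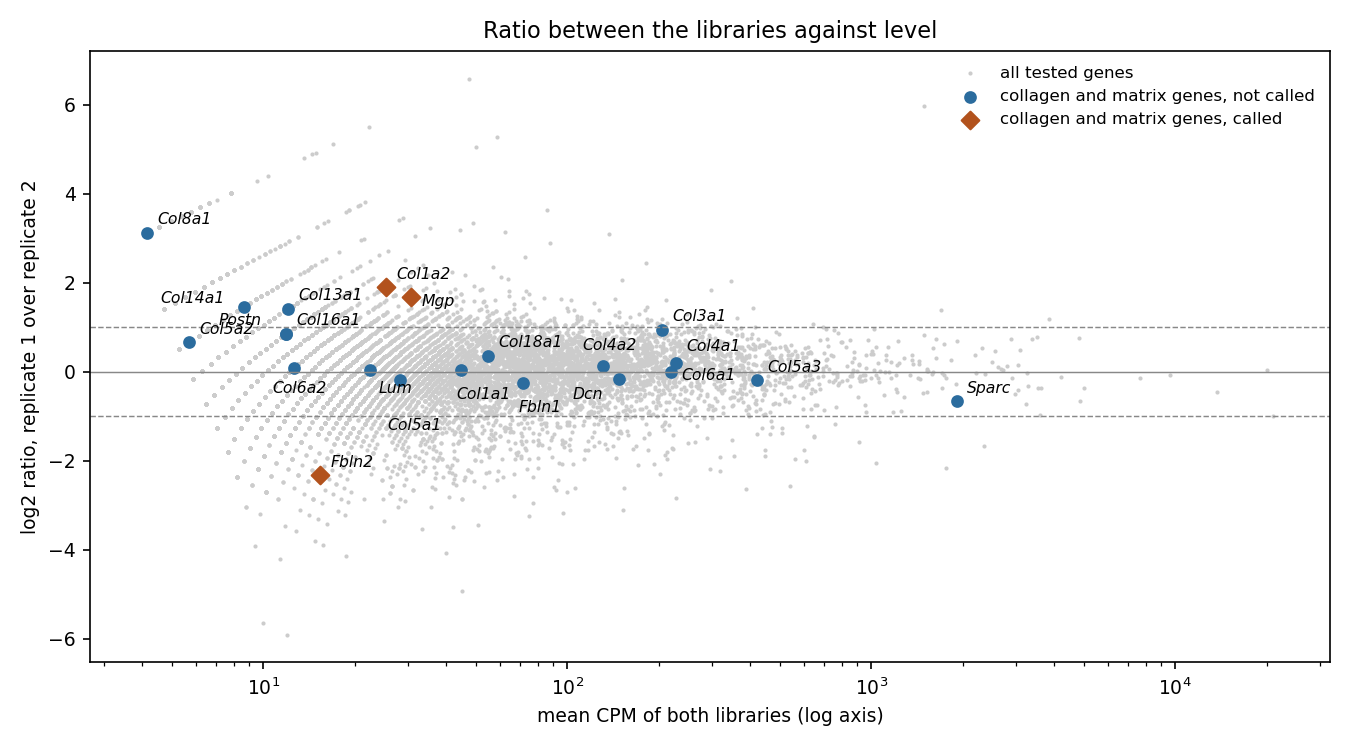
Log2 ratio of replicate 1 over replicate 2 against mean CPM (log axis) for all 10170 tested genes (grey) and the 22 tested collagen and matrix genes (blue, called ones as orange diamonds), with dashed lines at 2-fold. Col1a2 and Mgp lie above the upper line with a call, Fbln2 below the lower line, and the other labelled genes with high levels lie between the lines.

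Genes that act on collagen were measured in the same test, in lists chosen by function, and their calls stand beside 9.55% of all tested genes. The lists together held 12 calls, and 18 with annotated transcripts alone or without the genomic class. Of 18 tested genes for chain assembly and modification in the endoplasmic reticulum 1 was called, P3h3, a prolyl 3-hydroxylase family member, with 48.0 CPM in replicate 1 and 19.9 CPM in replicate 2. The list's most abundant genes were P4hb, the disulphide isomerase subunit of prolyl 4-hydroxylase (1515 and 939 CPM), the isomerase Pdia3 (609 and 734 CPM), the collagen chaperone Serpinh1 (529 and 742 CPM) and Crtap of the prolyl 3-hydroxylase complex (211 and 151 CPM). None of 16 genes for procollagen cleavage, cross-linking and turnover was called. Pcolce, the enhancer of procollagen C-proteinase, led them with 880 and 1629 CPM, ahead of the protease inhibitors Timp3 (122 and 159 CPM) and Timp2 (44.6 and 71.6 CPM) and the proteinase Bmp1 (54.6 and 53.7 CPM). None of 10 basement membrane partners was called. Their highest were the laminin chains Lamb1 (111 and 91.5 CPM), Lamb2 (91.8 and 63.7 CPM), Lama4 (36.4 and 23.9 CPM) and Lamc1 (16.5 and 17.9 CPM). The medians of these lists were 0.02, -0.32 and 0.39, beside 0.06 over all tested genes.

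Of 23 other matrix proteins 5 were called. Bgn, the small proteoglycan biglycan, had 31.4 CPM in replicate 1 and 273 CPM in replicate 2, a log2 ratio of -3.10 (adjusted p 3.36e-38), opposite in direction to Col1a2 and Mgp. Prelp (11.6 and 61.7 CPM), Sparcl1 (10.7 and 33.8 CPM) and Smoc1 (50.4 and 113 CPM) were also lower in replicate 1, and Emilin1 (115 and 53.7 CPM) was higher. Ecm1 (486 and 816 CPM), Efemp1 (107 and 81.6 CPM) and Fbln5 (69.5 and 119 CPM) were abundant and not called. Among receptors 3 of 17 were called: Itgav was higher in replicate 1 (31.4 and 3.98 CPM), and Itga5 (28.9 and 67.6 CPM) and Itga7 (4.13 and 21.9 CPM) were lower. The shared integrin chain Itgb1 had 561 and 358 CPM, Sdc3 368 and 521 CPM, Itgb5 208 and 372 CPM and Sdc2 115 and 127 CPM, without a call. In TGF-beta signalling 3 of 10 were called, with Ltbp3 higher in replicate 1 (104 and 41.8 CPM) and Tgfb1 (2.48 and 27.9 CPM) and Ltbp4 (28.9 and 107 CPM) lower, while Smad2 (86.0 and 95.5 CPM) and Smad4 (90.9 and 83.6 CPM) were not called. The medians of the matrix, receptor and TGF-beta lists were -0.17, -0.07 and -0.40. Some genes of the lists without a call differed past the adjusted p but by less than 2-fold. They were P4hb, Pdia3, Serpinh1, Pcolce, Ecm1, Fbln5, Itgb1, Itgb5 and Sdc3.

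Each read had been placed by the authors in a transcript model, and the models fall into classes: annotated, incomplete splice match (a consecutive part of an annotated intron chain), new in catalog (annotated splice sites in a new order), new not in catalog (at least 1 new splice site) and genomic. Annotated transcripts took 55.4% of the collagen and matrix reads in replicate 1 (exact 95% interval 53.8 to 56.9) and 68.8% in replicate 2 (66.7 to 70.8), beside 76.5% and 81.8% over all genes. Incomplete splice matches took 28.0% and 21.5% (mean 24.7% ± 4.59, SD, n = 2), beside 11.6% and 7.08%. Models with a new splice site took 7.76% and 6.42%, beside 3.09% and 3.74%. Col6a1 gave 183 of these 313 reads in replicate 1 and 77 of 129 in replicate 2, and without it the shares were 3.45% (exact 95% interval 2.89 to 4.08) and 2.74% (2.05 to 3.57). Long transcripts had more incomplete reads in general. Among genes that had 20 or more reads in both libraries and a longest transcript over 4000 bases, the median incomplete share was 28.7% for 8 collagen and matrix genes and 8.82% for all 1118 such genes.

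**Figure D3:**
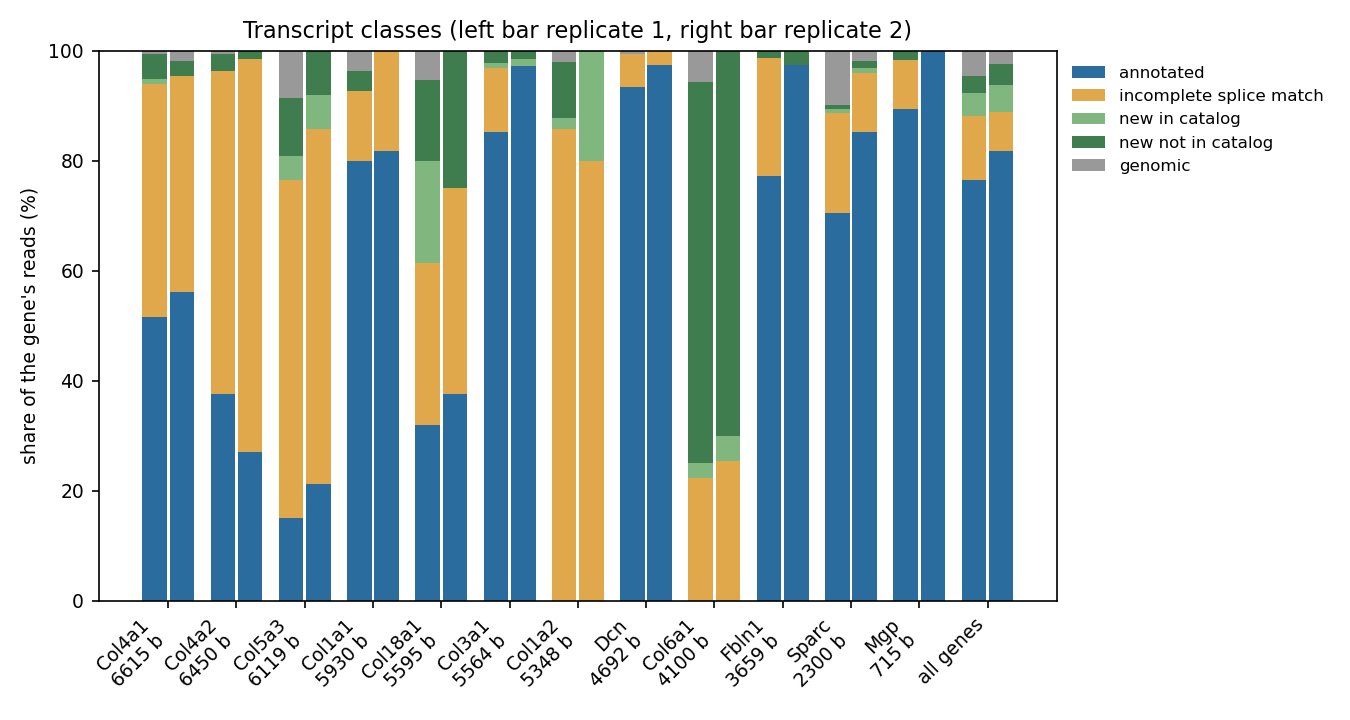
Share of reads in each transcript class, stacked to 100%, for the 12 genes whose reads over both libraries came to 50 or more, ordered by their longest annotated transcript (b, bases), with all genes at the right. For each gene the left bar is replicate 1 and the right bar replicate 2; Col1a2 and Col6a1 have no annotated reads, and Col5a3, Col4a2 and Col1a2 are mostly incomplete.

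Genes of similar length differed widely in how complete their reads were. Col3a1-201, with 51 exons and 5564 bases, was read from its first exon in 89.6% of the reads of replicate 1 and 100% of those of replicate 2. Col1a1-201, also with 51 exons and 5930 bases, was read from its first exon in 81.8% of reads in both libraries. For Col1a2-201, with 52 exons and 5348 bases, the shares were 8.16% and 0%, and no read of Col1a2 matched its annotated intron chain in full. Of the 49 and 5 Col1a2 reads, 42 and 4 were chains that began downstream of the annotated start and kept its 3′ end. In replicate 1 these began at 26 different exons. A new intron near the 5′ end (chr6:4505914-4509603) had 4 reads in replicate 1, against 1 for the annotated intron with the same acceptor. A chain with that new intron, of 3 reads in replicate 1, had 50 exons against 52 in Col1a2-201.

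Reads of the type V and type IV chains began at many different exons. Col5a3-201 (67 exons, 6119 bases) was read from its first exon in 26.1% and 28.8% of reads. Its 277 and 141 reads that kept the 3′ part began at 62 of the 67 exons over both libraries, the most frequent, exon 50, with 29 and 3 reads. Col4a1-201 (52 exons) was read from its first exon in 55.9% and 58.9% of reads, and its 106 and 42 such incomplete reads began at 44 exons. Col4a2-201 (48 exons) reached the first exon in 44.2% and 28.6%. For Col5a1 the shares were 18.8% and 26.7%, for Col18a1 54.7% and 58.3%, for Col6a1 68.6% and 73.6%, for Fbln1 78.5% and 100%, and for Dcn 73.4% and 87.2%. Over the 10 genes whose counts reached 20 in both libraries the incomplete share and the length of the longest transcript had a Spearman correlation of 0.71, given as a description.

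**Figure D4:**
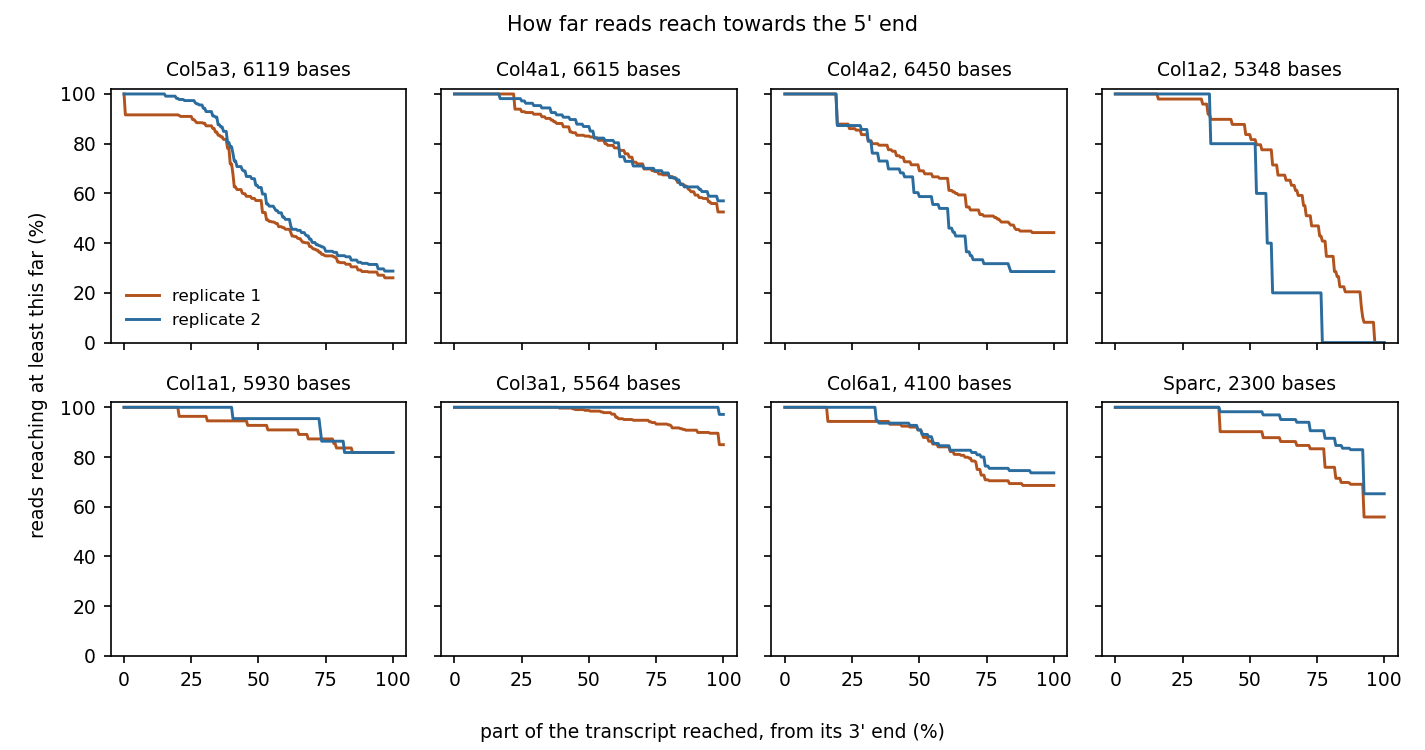
For 8 genes, the share of reads (vertical axis, %) whose model reaches at least a given part of the spliced transcript from its 3′ end (horizontal axis, %), with replicate 1 in orange and replicate 2 in blue. The curves of Col5a3 and Col1a2 fall steadily along the transcript, those of Col1a1 and Col3a1 stay above 80% of reads, and the last step of Sparc is the shorter first exon of Sparc-202.

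New intron chains with 3 or more reads in each library lay in 5 genes. Of 243 new intron chains of the collagen and matrix genes, 6 reached this, a share near that over all genes (1622 of 56402). These were 2 of Col6a1 and 1 each of Col5a3, Col18a1, Col5a1 and Sparc. Most new chains were seen in 1 library, as over all genes. Of the 243 chains 16 were seen in both, beside 7673 of the 56402 over all genes. The authors' class of a chain was not always stable: 6 of those 16 (37.5%) had another class in replicate 1 than in replicate 2, beside 9.16% of 7673 chains over all genes.

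Col6a1 had no read in an annotated transcript. Its main form was a new chain of 32 exons with 161 reads in replicate 1 and 66 reads in replicate 2, or 84.7% and 80.5% of its spliced reads, against 35 exons in the annotated Col6a1-201. The chain left out 3 coding exons: exons 6 (chr10:76721263-76721283) and 7 (chr10:76721088-76721108), of 21 bases each, and exon 29 (chr10:76712865-76712873), of 9 bases. The sequences below are taken from the annotated transcript, minus strand, with these exons in capitals between 21 bases of each neighbour.
Col6a1 exons 5 to 8: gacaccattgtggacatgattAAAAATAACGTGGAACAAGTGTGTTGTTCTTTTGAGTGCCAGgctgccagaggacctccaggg
Col6a1 exons 28 to 30: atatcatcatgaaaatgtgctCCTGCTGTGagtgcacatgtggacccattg
The intron that spans exons 6 and 7 (chr10:76721043-76721402) had 184 reads in replicate 1 and 82 reads in replicate 2, and the annotated intron from the same donor had 2 and 1. The intron that spans exon 29 (chr10:76712402-76713180) had 235 and 97 reads, against 0 and 1 for its annotated counterpart. In the models the 42 bases of exons 6 and 7 were replaced by 37 bases added to exon 8, and the 9 bases of exon 29 by 4 bases added to exon 28. A second new chain, of 31 exons with 8 and 5 reads, also left out exon 12, 27 bases replaced by 22. In all 3 places the model was 5 bases shorter than the annotation. The files give exon chains and no read sequences, so whether the reads hold the letters of these exons was not tested.

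Short exons of other members behaved unevenly. Of the annotated internal exons of at most 26 bases that at least 20 reads spanned, none of these reads held exon 3 of Col13a1-205 (8 bases, chr10:61920089-61920096, 22 and 3 reads) or a 17-base exon of Col4a1-208 (167 and 63 reads, and Col4a1-201 lacks it too). A 24-base exon of Col13a1 (chr10:61866391-61866414) was present in all 22 and 3 spanning reads. Over all genes, 0.789% and 2.57% of reads spanning an annotated exon of 3 to 12 bases held it exactly, and 59.0% and 56.2% did so for 13 to 26 bases. These figures use for each gene the coding transcript with the most exons and were chosen after the values were seen.

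Col5a3 and Col18a1 showed the same small change at an acceptor site. In Col5a3 exon 2 and in Col18a1 exon 37 the annotated exon begins with CAG, and the new chains began 3 bases further downstream. The first 30 coding bases of each exon (minus strand) are shown with the 3 bases in capitals that the new chain leaves out, since they carry this result.
Col5a3 exon 2, chr9:20810072-20810101: CAGaacctgtggacgtactggaagcctggg
Col18a1 exon 37, chr10:77058801-77058830: CAGgtgaggatctgggccacataccagacc
The acceptor with 3 bases fewer was used in 21 of the reads of Col5a3 in replicate 1 (16.9%, exact 95% interval 10.8 to 24.7) and 8 in replicate 2 (12.3%, 5.47 to 22.8), with the annotated one in 103 and 57. In Col18a1 it was used in 18 reads (26.9%, 16.8 to 39.1) and 7 reads (29.2%, 12.6 to 51.1), with the annotated one in 49 and 17. The shares of the 2 libraries lay within each other's intervals for both genes. Full new chains with this acceptor had 17 and 7 reads in Col5a3 and 8 and 4 reads in Col18a1, next to 72 and 48 reads of Col5a3-201 and 23 and 8 reads of Col18a1-202.

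The new chain of Sparc, with 5 and 3 reads, moved the donor of the first exon by 8 bases and made up 0.389% and 0.291% of its spliced reads.

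Where an annotated exon could be either kept or skipped, counts were made over exons with at least 20 informative reads. Of 16 such exons of collagen and matrix genes 8 were kept in 10% to 90% of reads, beside 1226 of 6415 over all genes, and all 8 lie in Col13a1, Col16a1 and Postn. All 8 have a length that is a multiple of 3, beside 671 of the 1226 over all genes (54.7%). The rest of the 16 also have such a length, except a 67-base exon of Col16a1 (chr4:130096873-130096939). The trait is thus not particular to the alternative exons of these genes. By Fisher's exact test, inclusion was called different between the libraries for none of the 16, beside 2 of 6415 over all genes (0.0312%). These calls needed an adjusted p under 0.05 and 10 percentage points. None of the 16 had an unadjusted p under 0.05 in that test.

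Col13a1 (chr10:61838236-61979108), a collagen anchored in the plasma membrane, held 5 of the 8 exons. All 22 reads of replicate 1 and 3 reads of replicate 2 were in new chains, since none held the 8-base exon. Exon 6 (27 bases, chr10:61905254-61905280) was kept in 15 reads and skipped in 7 in replicate 1, and kept in 0 and skipped in 2 in replicate 2. Exon 10 (27 bases, chr10:61895334-61895360) was kept in 18 of 22 and in 3 of 3 reads, exon 14 (57 bases, chr10:61891208-61891264) in 12 of 21 and 1 of 3, and exon 31 (99 bases, chr10:61862015-61862113) in 4 of 22 and 0 of 3. An exon of 36 bases (chr10:61853357-61853392) was kept in 10 of 22 and 0 of 3 reads. The exons of Col13a1-205 are shown on the minus strand with glycine codons in capitals, since they show which carry the repeat.
Col13a1 exon 6: GGTatcaaaGGTcaaccaGGCgagaag
Col13a1 exon 10: GGCcaccccGGAcctaaaGGGgagatg
Col13a1 exon 14: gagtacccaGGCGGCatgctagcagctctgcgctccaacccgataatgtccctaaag
Col13a1 exon 31: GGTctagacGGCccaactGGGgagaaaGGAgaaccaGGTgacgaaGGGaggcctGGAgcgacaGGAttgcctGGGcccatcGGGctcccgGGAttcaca
Exons 6, 10 and 31 hold 3, 3 and 11 glycine codons, each followed by 2 other codons. Exon 14 holds 2 glycine codons, side by side, among 19.

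Col16a1, a chain associated with fibrils, kept exon 41 of Col16a1-201 (48 bases, chr4:130073069-130073116, plus strand) in 11 of 18 reads of replicate 1 and 2 of 4 reads of replicate 2. It holds 4 glycine codons among 16.
Col16a1 exon 41: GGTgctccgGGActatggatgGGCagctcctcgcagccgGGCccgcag
Postn (chr3:54361109-54391037) kept exon 17 of Postn-202 (81 bases, chr3:54380412-54380492) in 10 of 19 and 3 of 4 reads and exon 21 (84 bases, chr3:54385671-54385754) in 2 of 18 and 2 of 4 reads. These are 2 of the exons near its C-terminal end whose splicing is known to differ between periostin forms, and both are shown on the plus strand.
Postn exon 17: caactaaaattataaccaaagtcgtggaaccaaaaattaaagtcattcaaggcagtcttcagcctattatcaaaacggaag
Postn exon 21: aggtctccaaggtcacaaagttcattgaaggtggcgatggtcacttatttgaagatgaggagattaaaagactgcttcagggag
The most common annotated forms were Postn-203, with 7 reads in replicate 1 and 1 read in replicate 2, and Postn-204, with 6 and 0 reads.

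**Figure D5:**
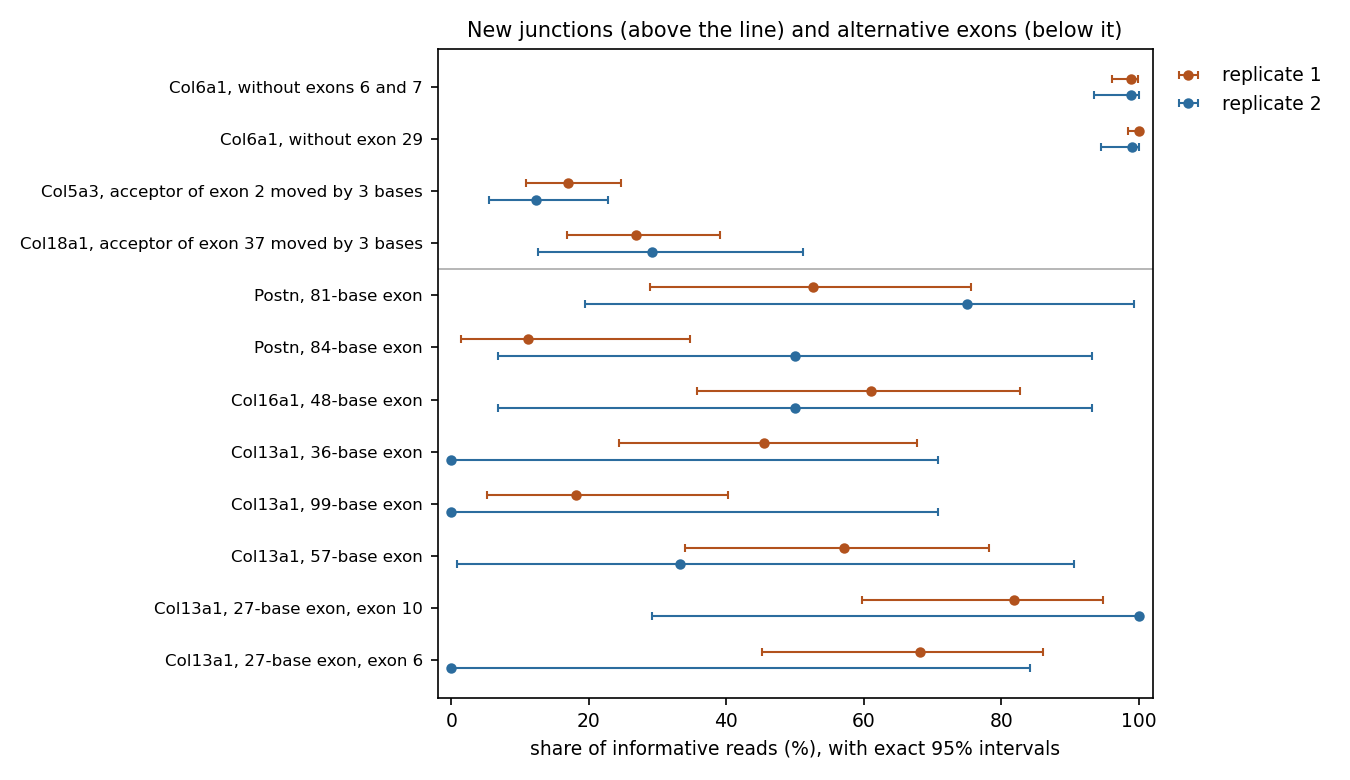
Share of informative reads (%) with exact 95% intervals for 4 new junctions (above the grey line) and the 8 alternative exons (below it), replicate 1 in orange above replicate 2 in blue. Both Col6a1 junctions are near 100% in both libraries, the shifted acceptors of Col5a3 and Col18a1 lie between 12% and 30%, and the intervals of the libraries overlap for every item.

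Several genes had more than 1 annotated start. Dcn was read from 2 first exons whose starts are 2758 bases apart: Dcn-201 had 123 and 68 reads, or 77.8% and 89.5% of spliced reads, and Dcn-202 had 34 and 8 reads, or 21.5% and 10.5%. The share of Dcn-201 was 11.6 points lower in replicate 1 (Fisher's exact test, p 0.0319, adjusted p 0.553). Sparc-201 had 991 and 761 reads and Sparc-202, whose start lies 182 bases inside the first exon, had 214 and 188 reads. Col18a1-202, which starts 52843 bases upstream of Col18a1-203, had 23 and 8 reads, against 1 and 1 for the downstream start. Of the 6 genes that reached 50 reads in both libraries none differed in the share of the main transcript after adjustment, beside 14 of 1887 genes called (0.742%), and 1, Dcn, had an unadjusted p under 0.05.

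Fbln1 ended in 2 ways. Fbln1-202, with 15 exons, had 40 reads in replicate 1 and 21 reads in replicate 2, or 64.5% (51.3 to 76.3) and 53.8% (37.2 to 69.9) of spliced reads. Fbln1-201, with 17 exons and another C-terminal end, had 21 and 17 reads, or 33.9% and 43.6%. The coding parts that follow the last shared exon have 355 bases in Fbln1-202 and 415 bases in Fbln1-201, and their first 60 bases are shown to compare the ends.
Fbln1-202 exon 15, chr15:85251445-85251504: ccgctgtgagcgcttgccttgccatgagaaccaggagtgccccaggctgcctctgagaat
Fbln1-201 exon 15, chr15:85263259-85263318: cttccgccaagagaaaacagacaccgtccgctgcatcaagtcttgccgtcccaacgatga
Of Fbln2, the annotated form Fbln2-201 had 0 reads in replicate 1 and 7 reads in replicate 2, and Fbln2-202 had 1 and 6 reads. An exon of 141 bases (chr6:91259630-91259770) was kept in 2 of 5 informative reads of replicate 1 and 7 of 13 of replicate 2, under the minimum of 20. The main annotated forms of the remaining abundant genes dominated their spliced reads, with Col3a1-201 at 96.2% and 97.1%, Col1a1-201 at 95.7% and 100%, Col4a1-201 at 90.5% and 95.2%, Col4a2-201 at 92.5% and 94.4%, and Mgp-201 at 98.1% and 100%. Col5a3-201 took 50.3% and 60.0%.

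Reads of the genomic class were concentrated in Sparc. In replicate 1, 175 reads lay in a single-exon model (chr11:55393330-55395386) made up of the 3′ untranslated part of the last exon and 1170 bases beyond the annotated end. Together 203 Sparc reads of replicate 1 were in models that ended at that place, and none in replicate 2 ended over 100 bases beyond the annotation. Replicate 2 had 21 reads in a corresponding model that stopped at the annotated end (chr11:55394500-55395386). In Col5a3, 40 genomic reads of replicate 1 were in a model of 1 base at the annotated 3′ end, which describes no transcript. Without the genomic class the summed level of the collagen and matrix genes was 3660 CPM.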

How the data were processed

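Long-read RNA-seq libraries of adrenal gland (2 replicates, 1 group) were used as deposited: read counts per transcript model from the authors, with the exon chains of the models. Per the deposited readme, counts came from filtered alignments on mm10 with GENCODE M21; models made by the authors carry the source name TALON. For the aligner, platform and versions: not given in the sources used here. No deposited column was left unused. The exon numbers and lengths in the deposited tables, and exon coordinates in the deposited annotations (other than counts), were read as given.

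Counts were summed by gene over all classes. CPM used reads of annotated nuclear genes; spike-ins, mitochondrial and new genes were left out. Gene counts, main transcript shares (at least 50 reads in each library) and exon inclusion (at least 20 informative reads) were compared by two-sided Fisher's exact tests (scipy 1.17.1) with Benjamini-Hochberg adjustment over all genes or exons; log2 ratios had 0.5 reads added. Exact 95% limits (Clopper-Pearson or Poisson) and the limit of a 0 count hold counting error alone. TMM scaling came from edgeR 4.0.16 and size factors from DESeq2 1.42.0, as alternatives. The steps were tested on simulated data. The genes, pathway lists and tests were chosen with earlier results of these data known, and exact inclusion by exon length, the shared starts and the Col6a1 base counts after these values were seen. Named were all detected genes, main transcripts and those with at least 10% of spliced reads, all shared new transcripts and alternative exons, and of each list the 4 most abundant and all called genes. Sequences come from GENCODE M21 transcripts and RefSeq promoters. A sequence and the splicing result that needs it are not reported here.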

Additional observations from a re-analysis of the deposited data

Results flagged for a closer look

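Reads on the strand opposite to collagen and matrix genes lay in models that the comparisons above do not use. Over Sparc there were 26 such reads in replicate 1 and 2 in replicate 2, over Col5a3 9 and 2, and over Col4a1 5 and 2. They drew attention because the values of replicate 1 exceed the 3 reads that a count of 0 allows, which is no background level for antisense reads. The same genes had 1786, 476 and 295 sense reads in replicate 1. No antisense share over all genes stands beside these counts, and whether they are unusual was not tested. No control library exists in this group. Antisense reads lay over 11 of the 52 genes, with 51 reads in replicate 1 and 10 in replicate 2.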

How the results depend on the processing

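With annotated transcripts alone the summed level was 2887 CPM and 12 genes were detected; with at least 1 read in each library 31 were detected. Without the 2-fold minimum 5 genes were called, Sparc and Col3a1 added. With all reads of a gene as denominator 1 main transcript share was called, that of Col3a1. Shared new transcripts numbered 16 at 1 read, 3 at 5 reads, 3 as new not in catalog alone and 0 as new in catalog alone. Alternative exons numbered 0 at 50 informative reads and 5 without incomplete and genomic reads. Over single libraries the summed level ran from 3333 to 3999 CPM and the incomplete share from 21.5% to 28.0%, with no test left between libraries. Genes with small log2 ratios and no call changed sign or reached 0. With TMM, Col1a1 was at -0.057, Lum at -0.050 and Col6a2 at -0.015, and with the median of ratios they were at -0.048, -0.041 and -0.0067. With replicate 1 thinned, Col1a1 was at -0.066, Col6a2 at -0.53 and Lum at 0. With the trend with transcript length removed, Col1a1 was at -0.078, Col4a2 at -0.041 and Col6a1 at 0.029, and with annotated transcripts alone Col6a2 was at -1.17. The cause was not tested. Another 181 values of single genes kept their direction and side of the threshold. Of the summary values 32 were counted as near the main value. The calls over the lists were among them but ran from 11 to 18 against 12, so that count was less stable. No paired analysis was possible because the study has 1 group. The depth of replicate 2 limits Col13a1, Col16a1 and Postn, with 3 or 4 reads there.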
